A study of Mus musculus with 4 samples.

Results

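The genes described are aquaporins and carbonic anhydrases that the colon is known for: Aqp1, Aqp3, Aqp4, Aqp8 and Aqp11, and Car1, Car2, Car3, Car4 and Car12. They were chosen by symbol, and every spot of theirs that was not a control spot was used: 15 probes of 10 genes, out of 39429 probes of 22173 genes. All 10 genes and all 15 probes were well above background on all 4 arrays, so no member was lost to a filter on dim signal.

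The series asked how mice that lack Pla2g10, which encodes the group X secreted phospholipase A2, respond to dextran sulfate sodium (DSS), a polymer that injures the colon lining. Whole colon of C57BL/6 mice was measured on 4 single-colour Agilent arrays: wildtype (Pla2g10 +/+, here WT) or knockout (Pla2g10 -/-, X-KO in the labels, here KO), each naive or after DSS at 1% (w/v) in the drinking water, taken at day 7. The mice were 9 weeks old and male if the tags for age and sex, whose entries are swapped, are read the other way round, and the husbandry notes speak of mice aged 8 weeks. Each array carried a pool of colon RNA from 3 mice, so there is 1 array a group, no spread between mice was measured, and a difference between 2 arrays has no test. The sources used here do not say how the deletion was made, or whether WT and KO were littermates.

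Values are relative signals: the processed signal of a probe divided by the 75th percentile over the spots of that array, and a value of 1 is that percentile. Between 67.7% and 70.4% of spots were well above background on an array. From probes spotted more than once, a typical probe can differ by 0.175 on the log2 scale between 2 arrays through spot noise alone. This limit comes from the largest median SD of repeat spots on an array, 0.063, and noisier probes exceed it. The 95th percentile of that SD ran from 0.122 to 0.181 over the arrays. Below, spot noise means this limit for a typical probe, which leaves out the spread between mice. Pla2g10 had log2 ratios of KO over WT of -3.23 in naive colon and -4.26 with DSS, the direction its labels give, though the sources used here do not say whether its probe lies in the deleted part. The colon's own markers were strong in every pool. For 8 epithelial markers (Epcam, Cdh1 and others) the summed relative signal ranged from 307 to 390.

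Aquaporins are membrane pores that let water, and in some members glycerol or other small molecules, cross a cell membrane along its gradient. Carbonic anhydrases turn carbon dioxide and water into bicarbonate and a proton, and back. In colon epithelium they supply the bicarbonate and protons that apical exchangers trade for chloride and sodium, and water follows the salt. Surface colonocytes are known for Aqp8, Car1, Car2 and Car4.

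Of the 10 genes, 5 had 2 probes at different places in the transcript, which gives a second reading of the same RNA on the same array. The probes are 60 bases long, each represented by 1 spot an array. The second probes of Aqp8, Aqp11, Car1 and Car4 are printed because the patterns described below rest on both probes of these genes. They are all in lower case, as no part of them is singled out, and each has at least 1 reading frame without a stop. Their places in mm9, the build of the array files, are chr7:130606210-130606269 on the plus strand (Aqp8), chr7:104877482-104877541 on the minus strand (Aqp11), chr3:14770171-14770230 on the minus strand (Car1) and chr11:84777667-84777726 on the plus strand (Car4). The exon each one lies in was not determined.
Aqp8: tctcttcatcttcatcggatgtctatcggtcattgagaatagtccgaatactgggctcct
Aqp11: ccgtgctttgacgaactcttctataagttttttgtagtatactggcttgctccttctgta
Car1: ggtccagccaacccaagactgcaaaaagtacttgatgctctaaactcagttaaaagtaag
Car4: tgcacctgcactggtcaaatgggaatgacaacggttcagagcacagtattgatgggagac

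The brighter probes of the same 4 genes lie 5243 bases (Aqp8), 2593 bases (Aqp11), 2685 bases (Car1) and 1820 bases (Car4) away from these. Over the 5 genes with a pair of probes, Aqp4 included, the log2 ratios of the pair differed by at most 0.50, in Aqp8, and by at most 0.25 in the other genes. The brighter probe of each gene gives the values below, and the other probe is named as such.

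**Figure D1:**
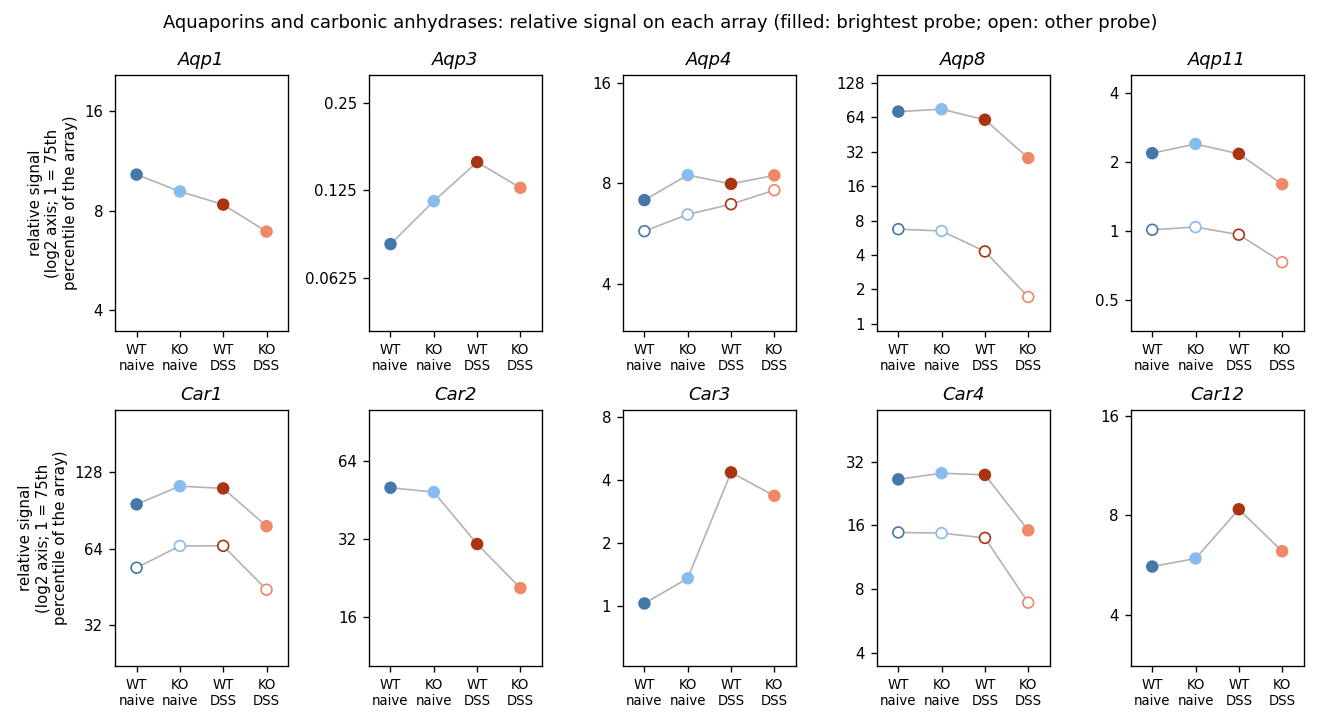
Relative signal of the 10 genes on the 4 arrays, on a log2 axis where 1 is the 75th percentile of the array, 1 panel a gene. Filled points are the brighter probe and open points the other probe, lines only join the points of a probe, and there are no error bars because each point is 1 pool. Aqp1, Aqp8, Aqp11, Car1, Car2 and Car4 are lowest in the KO DSS pool (28.2 for Aqp8), and Car3 is high in both DSS pools (4.36 and 3.37).

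In naive colon none of the 10 genes stood 2-fold apart between the genotypes, where 1.2% of genes were higher and 1.11% lower in KO. With DSS, the KO pool held less signal than the WT pool for 9 of the 10, led by Aqp8 (2.16-fold) and Car4 (1.83-fold), while Aqp4 differed by less than spot noise. Over all genes 61.2% lay below WT in that comparison. Against its own naive pool, the WT DSS pool had 1 gene 2-fold higher, Car3, and 0 lower. Over all genes 3.5% were higher and 5.37% lower in that comparison. The KO DSS pool had Car3 higher and 2 genes, Aqp8 and Car2, lower, where 5.94% of genes were higher and 5.22% lower.

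Among the water channels, Aqp8, the channel of the surface colonocyte's apical membrane, had the largest difference between pools of the 5 aquaporins. Its relative signal was 72.0 naive and 61.1 with DSS in WT, and 75.5 naive and 28.2 with DSS in KO. The KO DSS pool was far the lowest. The naive pools differed by less than spot noise, and WT DSS lay below both by more than spot noise. DSS over naive was -0.24 on the log2 scale in WT and -1.42 in KO, the latter a 2.67-fold lower signal. The other probe read 6.74 naive and 4.30 with DSS in WT, and 6.50 naive and 1.72 with DSS in KO, and its DSS ratios were -0.65 in WT and -1.92 in KO. Both probes put KO DSS lowest, and the other probe placed WT DSS further below naive than the brighter one did. Of 19605 genes well above background on both KO arrays, 293 had a lower ratio than Aqp8. In these whole-colon pools, fewer cells of a type and less RNA per cell cannot be told apart.

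Aqp1, a water channel of endothelium and red cells, had a relative signal of 10.3 naive and 8.34 with DSS in WT, and 9.14 naive and 6.91 with DSS in KO. Both DSS pools lay below both naive pools, by 0.30 on the log2 scale in WT and 0.40 in KO. The naive KO pool and the WT DSS pool differed by less than spot noise. Endothelial markers, all 8 of them measured, had a median log2 DSS ratio of -0.14 in WT and 1.09 in KO, with summed relative signals from 4.52 to 4.95. Kdr made up most of these sums, and its DSS ratio was 0.19 in WT and -0.41 in KO, the 1 marker below 0 in KO. Erythrocyte markers (5 of 8 measured) had medians of 1.09 and 3.18 and sums from 3.91 to 44.0. In KO the Aqp1 ratio thus had the opposite sign to both medians, and the part of these cells in its value was not tested.

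Aqp3, which also passes glycerol and sits in basolateral membranes, stood at 0.0815 naive and 0.156 with DSS in WT, and 0.115 naive and 0.127 with DSS in KO. WT DSS was highest, at a log2 ratio of 0.94 over WT naive, just inside the 2-fold threshold, and the KO DSS ratio was 0.15, within spot noise. With median scaling and with quantile normalization the WT ratio was 1.08 and 1.09. Its threshold call in WT therefore depends on the scaling.

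Aqp4, a basolateral channel known from glia and some epithelia, stood at 7.13 naive and 7.97 with DSS in WT, and 8.48 naive and 8.46 with DSS in KO. Its DSS ratios, 0.16 in WT and -0.00331 in KO, were both within spot noise. The other probe gave 0.27 and 0.24. Enteric glia markers (all 6 measured) had a median of -0.17 in WT against 0.32 in KO, with sums from 1.38 to 1.77.

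Aqp11, an intracellular aquaporin of the endoplasmic reticulum, stood at 2.19 naive and 2.17 with DSS in WT, and 2.40 naive and 1.60 with DSS in KO. As in Aqp8, the KO DSS pool was the low one, on both probes. The DSS ratio was -0.01 in WT and -0.58 in KO by the brighter probe, and -0.07 and -0.51 by the other. This is under 2-fold but larger than spot noise in KO.

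Among the cytosolic carbonic anhydrases, Car1 is an abundant isozyme of colon epithelium and red cells. It stood at 95.5 naive and 110.4 with DSS in WT, and 113 naive and 78.4 with DSS in KO. WT DSS was above WT naive by 0.21 on the log2 scale and KO DSS was below KO naive by 0.52. The other probe gave 0.29 and -0.57, while quantile normalization put the WT ratio at -0.05. Red cells also hold Car1, and their markers were highest in KO DSS, the pool where Car1 was lowest. The part of red cells in the Car1 value was not tested.

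Car2, the fast cytosolic isozyme, was lower with DSS in both genotypes, as Aqp1 and Aqp8 were. It stood at 50.5 naive and 30.7 with DSS in WT, and 48.6 naive and 20.7 with DSS in KO. The naive pools agree within spot noise and both DSS pools lie below them, by 1.65-fold in WT and 2.34-fold in KO. The mean DSS effect over both genotypes was -0.97 ± 0.21 (SE) on the log2 scale in limma, with an adjusted p of 0.227 over all 22173 genes.

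Car3, a slow isozyme known from skeletal muscle and fat, was the member that stood more than 2-fold higher with DSS in both genotypes. It stood at 1.03 naive and 4.36 with DSS in WT, and 1.35 naive and 3.37 with DSS in KO. DSS over naive was thus 4.25-fold in WT against 2.49-fold in KO, and both DSS pools lay above both naive pools. In WT, 96 of 19824 genes had a higher ratio. Its mean DSS effect was 1.70 ± 0.27 (SE), with an adjusted p of 0.208 in limma over all genes.

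Markers of fat and muscle, the tissues where Car3 is known to be abundant, moved in different directions beside it. Of 8 adipocyte markers 7 were measured (Lep was not well above background on any array). Their median log2 DSS ratio was 2.87 in WT and 1.79 in KO, with 6 and 5 past 2-fold, and their summed relative signal went from 5.82 and 6.38 in the naive pools to 30.9 in both DSS pools. Adipoq, a hormone of fat cells, stood at 0.143 naive and 1.55 with DSS in WT, and 0.138 naive and 1.07 with DSS in KO. Of 10 skeletal muscle markers 8 were measured (not Myh4 and Mylpf), with medians of -0.51 and -1.59 and sums from 1.92 to 4.52. The part of fat or muscle in the Car3 signal was not tested.

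Car4 and Car12 face the outside of the cell. Car4, held on the apical membrane by a lipid anchor, stood at 26.4 naive and 27.8 with DSS in WT, and 28.3 naive and 15.2 with DSS in KO. Both naive pools and the WT DSS pool differed by less than spot noise, and KO DSS was the low pool, 1.86-fold under KO naive. The other probe read 14.8 naive and 14.0 with DSS in WT, and 14.7 naive and 6.89 with DSS in KO, where DSS lay 2.13-fold under naive. Whether Car4 passes 2-fold therefore depends on the probe, and KO DSS was the lowest pool by both probes. Car12, a transmembrane isozyme, stood at 5.60 naive and 8.35 with DSS in WT, and 5.93 naive and 6.23 with DSS in KO. WT DSS was the high pool, 1.49-fold over WT naive, and the other 3 lay close together.

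**Figure D2:**
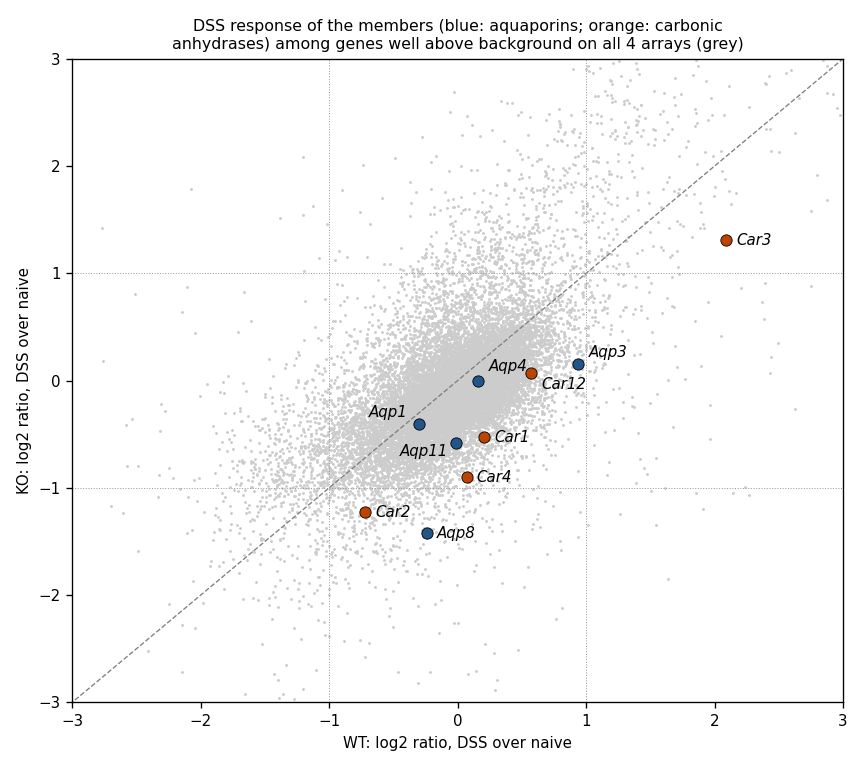
Log2 ratio of DSS over naive in WT (x axis) and KO (y axis) for 19322 genes well above background on all 4 arrays (grey), aquaporins in blue and carbonic anhydrases in orange. The dashed line marks equal ratios, dotted lines mark 2-fold, and 106 genes lie beyond the axes. All 10 labelled genes lie below the dashed line, Car3 far to the right (2.09 and 1.31) and Aqp8 lowest (-0.24 and -1.42).

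For each of the 10 genes the DSS ratio was lower in KO than in WT. The difference, KO minus WT, ran from -1.18 (Aqp8), -0.97 (Car4), -0.79 (Aqp3), -0.77 (Car3) and -0.73 (Car1) to -0.10 (Aqp1), with a median of -0.65. Over the 19322 genes well above background on all 4 arrays the difference was below 0 in 60.0%, with a median of -0.09. Quantile normalization left 8 of the 10 below 0, where 54.2% of all genes were, and median scaling left 10. With 1 array a group the difference has no residual degree of freedom and no test. By the brighter probes, the counting threshold of 1 on the log2 scale was passed by Aqp8 alone, and by 0 genes of the 10 with quantile normalization (Aqp8 at -0.83). The other probe gave -1.27 for Aqp8 and -1.01 for Car4, so whether Car4 passes depends on the probe.

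With DSS the log2 ratio of KO over WT was -1.11 in Aqp8, -0.87 in Car4, -0.56 in Car2, -0.49 in Car1, -0.44 in Aqp11, -0.42 in Car12 and -0.37 in Car3. At 2-fold 1 of the 10 was lower, Aqp8, where 2.26% of genes were, and 0 were higher, where 5.23% were. By the other probe Aqp8 was 2.50-fold and Car4 2.03-fold lower. Of 19846 genes well above background on both DSS arrays, 194 had a lower ratio than Aqp8 and 352 than Car4. Under quantile normalization Aqp8 stood at -0.92 and no longer passed 2-fold. The 10 genes had a median of -0.43, against -0.09 over all genes. In naive colon KO over WT ran from -0.17 (Aqp1) to 0.49 (Aqp3), with a median of 0.12 against 0.02 over all genes. All 4 comparisons draw on the same 4 arrays, so the KO DSS pool enters both its DSS ratio and its ratio to WT.

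**Figure D3:**
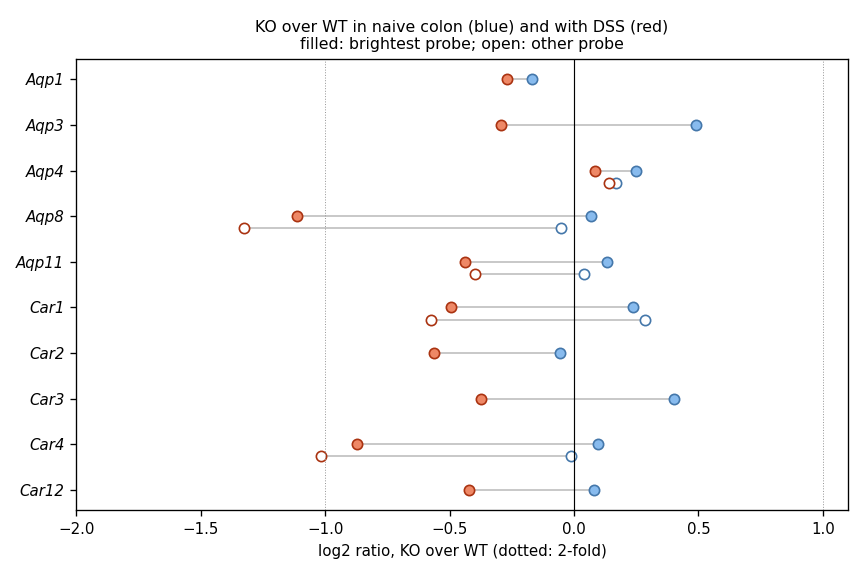
Log2 ratio of KO over WT for each gene in naive colon (blue) and with DSS (red). Filled points are the brighter probe and open points the other probe, a grey line joins the 2 values of a probe, and dotted lines mark 2-fold. Aqp8 goes from 0.07 in naive colon to -1.11 with DSS and Car4 from 0.10 to -0.87, whereas Aqp4 is above 0 in both, within spot noise with DSS.

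Most markers of the epithelium were also lower in the KO DSS pool than in the WT DSS pool. The median of KO over WT with DSS was -0.43 for the 10 members and -0.40 for the surface colonocyte markers. The DSS ratio in KO minus that in WT had a median of -0.65 for the members and -0.67 for these markers. It was below 0 in 10 of 10 genes of both lists, where 60.0% of all genes were. The 10 surface colonocyte markers, such as the keratin Krt20 and the guanylin gene Guca2a, had a median DSS ratio of 0.25 in WT and -0.35 in KO, and KO over WT with DSS was below 0 in 10 of 10 (median -0.40). The list was not uniform: Slc37a2, a sugar phosphate exchanger, stood at -1.33 in WT, -2.66 in KO and -1.70 for KO over WT with DSS, further below than Aqp8, and Slc26a3 also passed 2-fold in these comparisons. Slc37a2 was named after its values were seen. The summed relative signal of the 10 markers was 376 naive and 450.01 with DSS in WT, and 443 naive and 332 with DSS in KO. The 8 epithelial markers had medians of 0.22 and -0.33 with DSS, and the 8 goblet cell markers 0.15 and -0.31, with goblet sums from 470.2 to 631. The goblet list was not uniform either. In WT 4 of the 8 had a DSS ratio above 0 and 4 below, with Muc2 at -0.95. KO over WT with DSS was below 0 in 6 and above 0 in 2, Muc2 (0.41) and Retnlb (0.12). Both were named after their values were seen. The median DSS ratios of the marker lists depend on the scaling. With quantile normalization they were 0.05 and -0.19 (epithelial), -0.13 and -0.15 (goblet cell), and 0.02 and -0.28 (surface colonocyte). The median of KO over WT with DSS was then -0.34 for the members and -0.21 for the surface colonocyte markers. For the epithelial markers it was -0.09, against -0.28 in the main values. The part of epithelial content in the Aqp8, Car1, Car2 and Car4 values was not tested.

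Other cell types differed between the DSS pools as well. Neutrophil markers (all 8 measured) had median DSS ratios of 4.47 in WT and 5.84 in KO, 2.63 and 5.16 with dim values at their bounds. Their sums were 32.7 naive and 27.1 with DSS in WT, and 40.0 naive and 67.8 with DSS in KO. Csf3r made up a large share of these sums. It was the 1 marker of the 8 that was lower with DSS, at -0.70 in WT and -0.43 in KO. The 8 smooth muscle markers had medians of -0.32 and -0.97 and sums from 185 to 320. Pancreatic acinar markers (all 11 measured) had a median of 6.27 in WT against 4.08 in KO, 5.24 and 2.82 with bounds. Their sums were 7.92 naive and 32.5 with DSS in WT, and 7.03 naive and 9.03 with DSS in KO. Cela1 made up most of the naive sums, at 7.47 in WT and 6.56 in KO. Unlike the median, it was lower with DSS, at 6.20 in WT and 2.27 in KO. The acinar gene Amy2a5 was dim in both naive pools and stood at 13.2 in WT DSS and 4.19 in KO DSS. Aqp8 is also known from pancreatic acinar cells, and it was not higher in either DSS pool than in the naive pools. The part of these cells in the members' values was not tested.

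**Figure D4:**
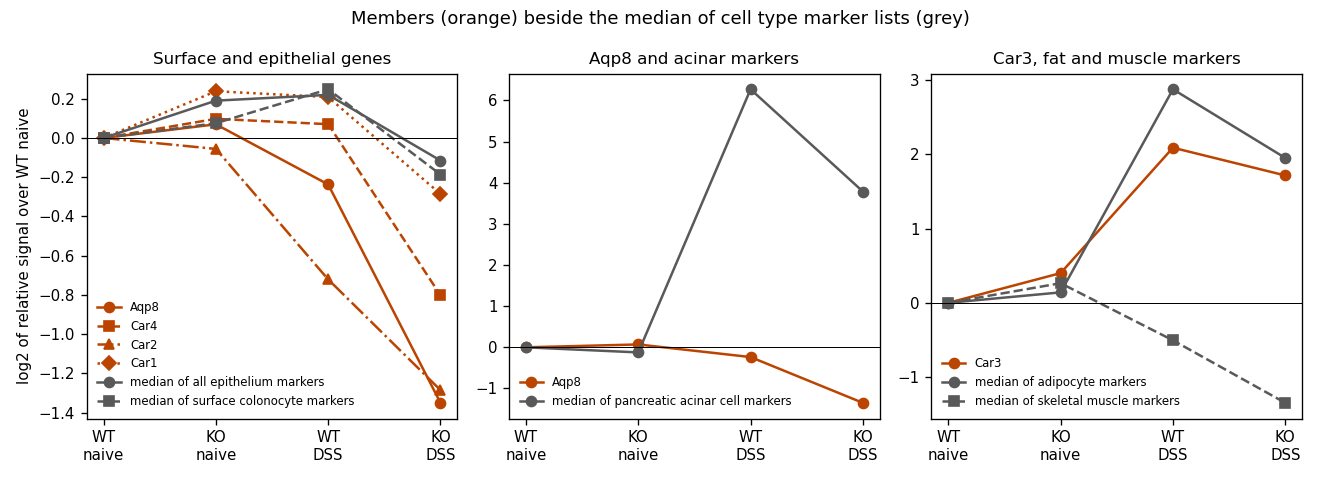
Log2 relative signal over WT naive on the 4 arrays for members (orange) and for the median of marker lists (grey), 1 point a pool, without error bars. Left, surface and epithelial genes, with Aqp8, Car1, Car2 and Car4 below the marker medians in KO DSS. Centre, Aqp8 and acinar markers, whose medians with DSS part in direction. Right, Car3, in both DSS pools between the adipocyte markers (2.87 in WT DSS) and the skeletal muscle markers (-0.51). In KO naive Car3 (0.40) is above both (0.14 and 0.26).

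Car1, Car2 and Car3 are neighbours on mouse chromosome 3, together with Car13, a further cytosolic isozyme. In mm9 their probes lie at 14662332 (Car13), 14767486 (Car1), 14871781 (Car3) and 14900206 (Car2), a span of 237934 bases. Car3 and Car2, with probes 28425 bases apart and on the same strand, had DSS ratios of opposite sign in both genotypes: 2.09 and 1.31 for Car3, -0.72 and -1.23 for Car2. Car13 stood at 0.50 in WT and 0.40 in KO. Car1 stood at 0.21 in WT and -0.52 in KO. The DSS ratios of the 4 genes of this cluster thus had no shared direction. KO over WT with DSS was below 0 in all 4, where 61.2% of all genes were. It was -0.09 in Car13, -0.49 in Car1, -0.37 in Car3 and -0.56 in Car2.

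Relatives outside the chosen 10 were counted at the same 2-fold threshold. Of 7 other aquaporins, 3 (Aqp2, Aqp7 and Aqp12) were well above background on an array, and none of them passed 2-fold in any of the 4 comparisons. Of 11 other carbonic anhydrases, all measured, DSS put 1 higher and 0 lower at 2-fold in WT colon, where 3.5% of all genes were higher and 5.37% lower. In KO colon it was 1 in each direction, where 5.94% of all genes were higher and 5.22% lower. Car6, a secreted isozyme known from saliva, was dim (not well above background) in both naive pools, and stood at 0.0775 in WT DSS and 0.0903 in KO DSS. DSS over naive was at least 4.70-fold in WT and at least 5.86-fold in KO, from the lowest well-measured signal of the naive array. Car5a, a mitochondrial isozyme, was well above background in WT DSS only, at 0.0310, and was at least 2.19-fold lower in KO DSS. The gene lower in KO, Car14, a transmembrane isozyme, stood at -1.35 there and at -0.95 in WT.

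The exchangers, channels and pumps that work with these enzymes were lower with DSS in most cases. Of 32 listed genes of colonic salt, acid and base transport 31 were measured (not Slc4a10). In WT 4 were 2-fold lower and 0 higher, with a median of -0.43, and 30 of 31 lay below 0. In KO 13 were lower and 1 higher, with a median of -0.74, and 27 of 31 lay below 0. Over all genes 51.6% lay below 0 in WT and 61.0% in KO, and the shares past 2-fold were those given above (5.37% lower in WT, 5.22% lower and 5.94% higher in KO). KO over WT with DSS had a median of -0.41. In naive colon it had a median of 0.01.

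Slc26a3, the apical chloride and bicarbonate exchanger, had the lowest DSS ratio of the list in KO. It stood at 23.4 naive and 10.1 with DSS in WT, and 20.2 naive and 5.01 with DSS in KO. With DSS it was lower by 2.31-fold in WT and by 4.04-fold in KO, and it was 2.02-fold lower in KO DSS than in WT DSS. Cftr, the chloride channel, was lower by 2.01-fold in WT and by 2.21-fold in KO, and Sgk1, a kinase that stimulates sodium uptake, 2.44-fold and 2.27-fold. Slc4a1, the anion exchanger of red cells and also one of the erythrocyte markers, was the 1 gene past 2-fold on the higher side, 3.43-fold in KO. Slc26a3 is one of the surface colonocyte markers, so these lists share it.

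**Figure D5:**
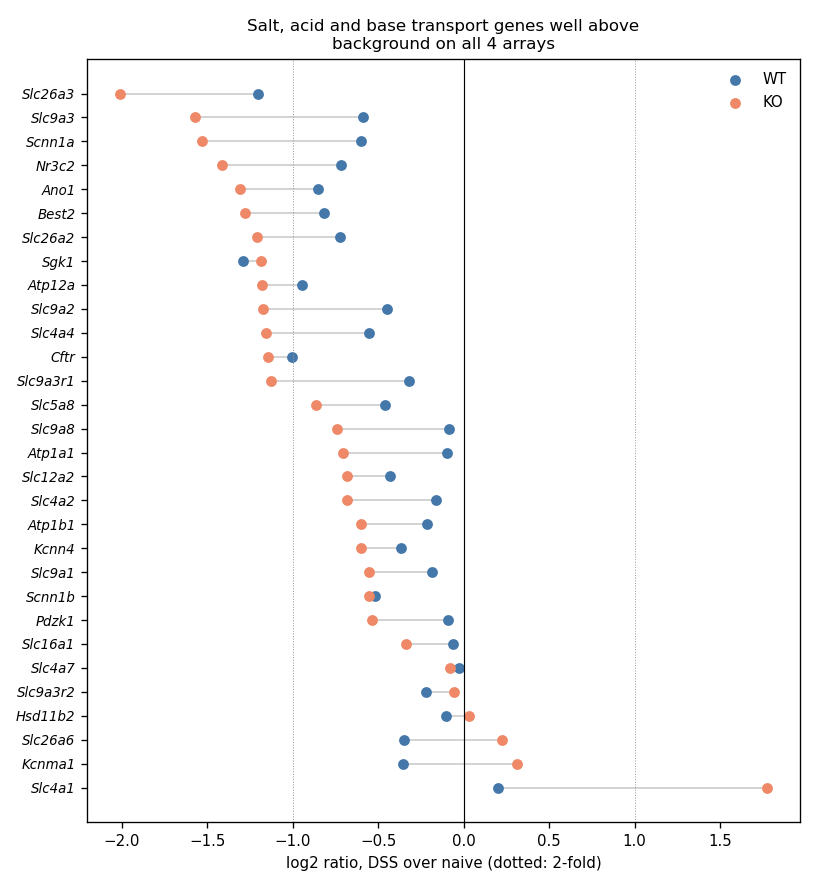
Log2 ratio of DSS over naive in WT (blue) and KO (orange) for the 30 transport genes well above background on all 4 arrays, ordered by the KO value, 1 pool a group. Grey lines join the genotypes and dotted lines mark 2-fold. The KO ratio is the lower one in 24 of 30 genes, and in 60.0% of all genes well above background on all 4 arrays. In KO Slc26a3 is lowest (-2.01, with -1.21 in WT) and Slc4a1 highest (1.78). In WT Sgk1 (-1.29) lies below Slc26a3.

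In the additive limma fit over both factors, 0 of 22173 genes passed an adjusted p of 0.05 for DSS (0%) and 0 for genotype (0%), and 4094 and 854 had an unadjusted p under 0.05. The fit has 1 residual degree of freedom, and a response that differs between genotypes enlarges its error. Of the 10 genes, Car3 and Car2 had the smallest p for DSS, followed by Aqp8 at -0.83 ± 0.37 (SE, adjusted p = 0.347). The genotype effect had an adjusted p of 0.999 for all 10. With only genes well above background on all 4 arrays, limma made 1090 calls for DSS and the adjusted p was 0.0256 for Car3 and 0.0509 for Car2. With trend and robust variance it made 1533 calls, with 0.0162 for Car3 and 0.0475 for Car2.

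For the 3 members past 2-fold with DSS in at least 1 genotype, the genes with the most similar profile were found by the distance of the 3 log2 ratios to WT naive, over 19322 genes and 4 arrays. Nearest to Aqp8 were Azgp1 (0.04), Krt4 (0.08) and Lyzl4 (0.10). Nearest to Car2 were Zfp648 (0.07), Clic6 (0.08) and Vdr (0.10), the vitamin D receptor. Car3 had no such close neighbour, with Irgm2 (0.31), Wfdc18 (0.32) and Cd274 (0.32) nearest. With 3 ratios a gene, many genes lie close together by this measure.

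Aqp8 and Car4 were the members furthest below WT in the KO DSS pool, and the sequences before their start sites are printed to show what these promoters hold. The RefSeq table (GRCm38.p6) held promoters for 6 of the 10 genes (Aqp1, Aqp3, Aqp8, Aqp11, Car4 and Car12), which were searched. The 250 bases before the start were searched on both strands for the TATA box TATAAA, the HNF1 letters GTTAAT, the HNF4 letters CAAAGTCCA, the CDX letters TTTATG or their variant TTTATT, the GC box GGGCGG and the HIF core ACGTG. Of 32851 promoters of that length, 12.4% held TATAAA, 6.43% the HNF1 letters, 0.384% the HNF4 letters, 25.5% the CDX letters, 32.7% the GC box and 16.6% the HIF core. In Aqp8 (chr7:123462044-123462293, plus strand) capitals mark CACGTG, which holds the HIF core on both strands in overlap, starting 75 bases before the start site, and TTTATT starting 6 bases before it. In Car4 (chr11:84957504-84957753, plus strand) no searched letters were found, so nothing is in capitals.
Aqp8: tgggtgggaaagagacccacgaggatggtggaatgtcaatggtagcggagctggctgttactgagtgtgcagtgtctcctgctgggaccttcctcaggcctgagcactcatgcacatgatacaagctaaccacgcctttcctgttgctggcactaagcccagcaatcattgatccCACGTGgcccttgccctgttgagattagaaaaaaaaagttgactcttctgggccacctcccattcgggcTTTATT
Car4: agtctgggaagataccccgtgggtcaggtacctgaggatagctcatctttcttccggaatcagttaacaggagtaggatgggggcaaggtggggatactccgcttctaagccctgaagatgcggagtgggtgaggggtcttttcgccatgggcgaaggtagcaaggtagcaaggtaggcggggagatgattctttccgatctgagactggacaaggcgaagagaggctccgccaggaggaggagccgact

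The GC content of the 250 bases was 52.4% for Aqp8 and 56.4% for Car4. The promoters of both genes, which had like patterns over the 4 pools, shared none of the searched letters. Aqp3 held TATAAA 29 bases before its start, and Aqp1, Aqp3 and Car12 each held a GC box, at 190, 73 and 35 bases before. A match of letters is not a binding site, and no match says nothing of the factor.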

How the data were processed

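Colon RNA was measured on 4 arrays, 1 per group. The deposited scanner files give an intensity per spot, background-subtracted and detrended, from Agilent Feature Extraction 11.5.1.1, per the submitters' processing notes. The table deposited for the series has a linear, uncentred signal, which equals that intensity over 1 constant per array (2281.83 to 2729.36); its column medians were 0.0923 (WT naive), 0.0932 (KO naive), 0.0833 (WT DSS) and 0.0885 (KO DSS). All 4 arrays lie on 1 slide.

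From the deposited intensities, 1377 control spots and 129 to 136 outlier spots per array were left out, 0 spots being saturated. Each array was divided by its own 75th percentile before taking log2. Repeat spots were averaged, and a gene took its brightest probe well above background on at least 1 array. Names came from the files and RefSeq tables (27508 probes by accession, 3544 by symbol, 404 by older symbol, 7973 by the file's name). A gene passed 2-fold only if well above background on the higher array, with a dim lower array set to its lowest well-measured signal. Log2 values of all genes were fitted with limma 3.58.1 (R 4.3.3, lmFit and eBayes, treatment plus genotype), with Benjamini-Hochberg adjustment. Tested on simulated data with 22173 genes, the DSS fit recovered 0% of changes of log2 1 or 2, 64% of log2 4 and 86% of log2 6, with 4 false calls; the genotype fit recovered 0%, 0%, 52% and 82%, with 3 false calls.

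Members, lists, markers and the naming rule were chosen with earlier results of these data known. The rule names all members, and from the related lists the genes past 2-fold in the same direction with DSS in both genotypes or in KO over WT with DSS, up to 8 a list. Car14, Car13 and Adipoq were named after their values were seen. Alternatives were median scaling, quantile normalization, normexp background correction (offset 50) with quantile normalization, the mean of probes, the deposited table, another set of scaling probes, measured dim values, a filter to genes well above background on all 4 arrays, and trend with robust variance.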

Additional observations from a re-analysis of the deposited data

Results flagged for a closer look

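In 3 of the 10 genes the DSS ratio had opposite signs in the genotypes. The share of all genes with opposite signs was not counted. Over all genes 51.6% lay below 0 in WT and 61.0% in KO. Car4 stood at 0.0703 on the log2 scale in WT and -0.90 in KO, Car1 at 0.21 and -0.52, and Aqp4 at 0.16 and -0.00331. With 1 pool a group, the difference between genotypes was not tested. For Car4 only the KO value lay beyond spot noise, for Car1 both did, and for Aqp4 neither did. The second probe of Car4 had both ratios below 0 (-0.09 and -1.09), that of Car1 kept opposite signs (0.29 and -0.57), and that of Aqp4 had both above 0 (0.27 and 0.24). Some signs also changed with the processing. The WT ratio took the other sign in 3 of 8 alternatives for Car4, 1 of 8 for Car1 and 1 of 8 for Aqp4. The KO ratio did so in 5 of 8 for Aqp4 and in 0 for Car4 and Car1.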

How the results depend on the processing

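No paired analysis was possible because each group holds 1 array. Of 390 values of the 10 genes under the alternatives, 369 kept their sign, and none of the values past 2-fold changed sign. Measured dim values and the filter to all 4 arrays could not move any of them, as no member was dim. The deposited table, the same intensity over 1 constant per array, could hardly move them. The mean of probes could move only genes with 2 probes. The counts here include these values, so they overstate how far the results were tried. Within 1 SD of a difference of 2 arrays, taken from repeat spots, 301 stayed near the value given. That limit is narrower than the spot noise of 0.175 used above. The number past 2-fold with DSS in WT was 2 with median scaling and 2 with quantile normalization (1 otherwise), as Aqp3 joined Car3. For KO over WT with DSS it was 0 with quantile normalization and 0 with normexp and quantile normalization (Aqp8 at -0.92 and -0.93). The number whose DSS responses differ by 1 or more was 2 with median scaling (Car4 at -1.04), 0 with quantile normalization and 0 with normexp and quantile normalization. Limma called 1090 genes for DSS on genes well above background on all 4 arrays (447 higher, 643 lower) and 1533 with trend and robust variance (618 and 915), which also called 7 for genotype, all higher; the cause was not tested. Median scaling moved the median of all genes in WT with DSS from -0.02 to 0.13. Of the genes past 2-fold, the share that was higher came to 39.5% in WT with DSS, against 53.1% with median scaling and 52.5% with normexp. In KO with DSS it was 53.2%, against 64.2% with normexp. It was 69.8% for KO over WT with DSS, against 59.6% with measured dim values, and 52.0% in naive colon, against 64.5% with the filter to all 4 arrays. All members were well above background on all 4 arrays, and 1 array a group limits the precision of their values.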
